A study of Mus musculus with 4 samples.

Results

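F-box proteins and cullins are the parts from which one large class of ubiquitin ligases is built. The genes described here are 89 of the 22565 genes in the deposited table whose symbols name a cullin, a RING subunit, a Cand exchange factor or an F-box protein, taken by symbol and not by any measured value, with 2 F-box genes left out by the rule. They comprise 8 cullins, 2 RING subunits (Rbx1 and Rnf7), 2 exchange factors (Cand1 and Cand2) and 77 F-box genes. The F-box genes fall into 19 of the Fbxl class with leucine-rich repeats (Skp2 among them), 22 of the Fbxw class with WD40 repeats (Btrc among them) and 36 of the Fbxo class with other domains. Fbxo45, the gene named in the knockout labels, is one of those left out and is treated only as a check of the labels.

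The RNA came from alveolar epithelial type II cells (AT2 cells, which secrete surfactant), taken by flow cytometry from the lungs of untreated mice 6 months of age. There were 2 wild-type (WT) libraries and 2 whose titles say knockout (KO), which the growth protocol calls an Fbxo45 conditional knockout. The driver of the deletion, the deleted exons and the strain are not stated in the labels. Nor do the labels tell whether replicates are different animals, so every p-value reflects spread among 4 libraries that may be technical. In KO replicate 2 the genotype field has Fbxo46 in place of Fbxo45.

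A cullin is a scaffold that binds a RING subunit, which recruits the ubiquitin-conjugating enzyme, at one end and a substrate adaptor at the other. In ligases built on Cul1 the adaptor is Skp1 with an F-box protein, and the F-box protein chooses the substrate. Attachment of the ubiquitin-like protein Nedd8 activates the cullin, the COP9 signalosome removes it, and Cand proteins let one F-box protein be exchanged for another.

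The library totals were 4167114 and 8200174 recovered fragments for WT replicates 1 and 2, and 9507432 and 7066424 for KO-labelled replicates 1 and 2. Levels are given in FPKM, the authors' fragments scaled to transcript length and library size. Fbxo45 stood at 4.60 and 5.91 FPKM for WT and at 4.41 and 7.58 FPKM for the KO label, so its level did not separate the groups, and where its reads lie relative to a deleted exon is not known. All directions below are therefore those of libraries labelled KO. The AT2 markers were abundant in all libraries, with a summed level over 11 genes of 131462, 125182, 82997 and 117591 FPKM (WT replicates 1 and 2, then KO-labelled replicates 1 and 2, the order used for all runs of 4 values). Sftpc alone gave 101544, 94984, 54458 and 87684 FPKM of this, and the other 10 markers summed to 29918, 30198, 28539 and 29907 FPKM. KO-labelled replicate 1 also held more skeletal muscle transcripts: the 11 fast muscle markers summed to 1286 FPKM there, against 0.544 to 10.7 FPKM in the other 3 libraries. All 11 were detected in that library, and also in WT replicate 2 and KO-labelled replicate 2. Of other lung cell types, the club cell markers summed to 1328, 898, 1138 and 814 FPKM, the AT1 markers to 757, 626, 963 and 620 FPKM and the ciliated markers to 132, 102, 158 and 122 FPKM. The fibroblast and smooth muscle markers summed to 67.3, 25.9, 72.9 and 73.4 FPKM, and the endothelial markers stayed at or below 1.84 FPKM. In bulk libraries such as these, fewer cells of a type and less RNA per cell cannot be told apart.

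Most of the ligase parts were detected. Of the 89 genes, 58 (65.2%) reached 1 FPKM in all 4 libraries, against 44.2% of all genes in the table, and 14 (15.7%) had no fragment in any library, against 32.1% of all genes. A further 3 genes reached 1 FPKM in 2 or 3 libraries, so that 61 passed the filter for testing (1 FPKM in at least 2 of the 4). The 28 that did not comprised 4 with 1 FPKM or more in a single library and 24 below it in every library. The tested genes held all 8 cullins, both RING subunits, Cand1 and 50 of the 77 F-box genes (15 Fbxl, 27 Fbxo and 8 Fbxw). A fragment count of 0 allows a level of up to 0.72 CPM (the gene's fragments scaled to a common library total) in WT replicate 1, the shallowest library, and 0.316 CPM in KO-labelled replicate 1, the deepest (3 fragments, counting error only; the binomial intervals below share that limit).

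The promoters of 4 of these genes are shown because they span the range from the most abundant cullin to a gene with no fragment. Each is the 300 bases around the gene's start that RefSeq gives for the assembly GRCm38.p6, written 5′ to 3′ on the gene's strand, with every CpG dinucleotide in capitals. The Cul3 window lies at chr1:80340641-80340940, that of Fbxo11 at chr17:88065996-88066295, that of Fbxo40 at chr16:36990418-36990717 and that of Fbxw21 at chr9:109161973-109162272, all on the minus strand. For Cul3 and Fbxo11 the window lies wholly upstream of the start in the annotation GENCODE M21 (80340480 and 88065291), so the annotations differ there.
Cul3: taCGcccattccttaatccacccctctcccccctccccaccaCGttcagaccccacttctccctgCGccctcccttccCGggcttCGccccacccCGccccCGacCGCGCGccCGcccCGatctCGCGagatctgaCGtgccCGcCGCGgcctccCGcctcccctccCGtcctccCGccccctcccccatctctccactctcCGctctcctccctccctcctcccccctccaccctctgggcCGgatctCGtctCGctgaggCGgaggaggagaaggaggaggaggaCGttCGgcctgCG
Fbxo11: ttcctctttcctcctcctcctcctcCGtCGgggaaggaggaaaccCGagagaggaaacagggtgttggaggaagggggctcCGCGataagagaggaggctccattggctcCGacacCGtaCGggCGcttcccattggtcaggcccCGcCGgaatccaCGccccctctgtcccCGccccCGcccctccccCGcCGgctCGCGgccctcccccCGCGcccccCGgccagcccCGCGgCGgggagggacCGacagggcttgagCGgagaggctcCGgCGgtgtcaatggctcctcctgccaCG
Fbxo40: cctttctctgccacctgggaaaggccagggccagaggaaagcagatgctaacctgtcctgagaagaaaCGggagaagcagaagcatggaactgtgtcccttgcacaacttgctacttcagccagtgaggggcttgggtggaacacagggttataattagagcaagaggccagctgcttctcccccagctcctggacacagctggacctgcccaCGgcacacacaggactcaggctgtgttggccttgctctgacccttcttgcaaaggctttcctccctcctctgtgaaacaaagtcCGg
Fbxw21: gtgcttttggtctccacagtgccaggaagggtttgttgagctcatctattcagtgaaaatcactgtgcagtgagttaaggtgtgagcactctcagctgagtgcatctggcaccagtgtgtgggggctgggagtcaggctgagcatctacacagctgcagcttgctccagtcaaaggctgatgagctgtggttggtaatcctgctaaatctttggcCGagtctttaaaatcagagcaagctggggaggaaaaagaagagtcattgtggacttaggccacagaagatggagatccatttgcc
The Cul3 and Fbxo11 windows hold 29 CpG dinucleotides each, the Fbxo40 window 3 and the Fbxw21 window 1. Cul3 and Fbxo11 were expressed in every library, Fbxo40 is a muscle F-box gene found mainly in 1 library, and Fbxw21 is one of a row of oocyte F-box genes.

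RefSeq windows matched 68 of the 89 genes, with only the first listed window used for each gene. The 47 tested genes among them had a median of 21 CpG, the same as the median of the 8292 tested genes of the whole table with a window, and 57.4% of them held 20 or more, against 57.3%. The 21 genes that were not tested had a median of 3 CpG, against 4 over the 7559 untested genes with a window. The 12 windows of genes with no fragment held at most 16 CpG, with a median of 1. Apart from Fbxo41, at 16 CpG, these were Fbxw genes of chromosome 9, at 0 to 4 CpG. The same Fbxw genes formed much of the 21, so both medians largely describe that group. The medians of the ligase genes were therefore within 1 CpG of those of the table at large, and no test was made of this.

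Exceptions stood on both sides. Cul1 had 5 CpG in its window, as did Fbxo6, and Fbxo4 had 7, although all were well expressed. The Cul1 window (chr6:47453482-47453781) begins downstream of the start that GENCODE M21 gives (47453398), so its count does not describe that start. Fbxl7, Fbxl2, Fbxl13 and Fbxo48 had 31, 24, 22 and 21 CpG and stayed under 1 FPKM in every library. The Fbxl2 window likewise lies inside the gene as GENCODE M21 places it, away from that start. Among short motifs searched on both strands, CCGGAAG (the core bound by ETS factors) was in 11 of the 47 tested windows (23.4%), against 19.6% of all tested windows and 12% of all 15851 windows. TATAAA was in 1 (2.13%), against 6.34% and 12.7%. CCAAT was in 14 (29.8%), against 38.4% and 38.5%. A match is a description of the letters in the window only.

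**Figure D1:**
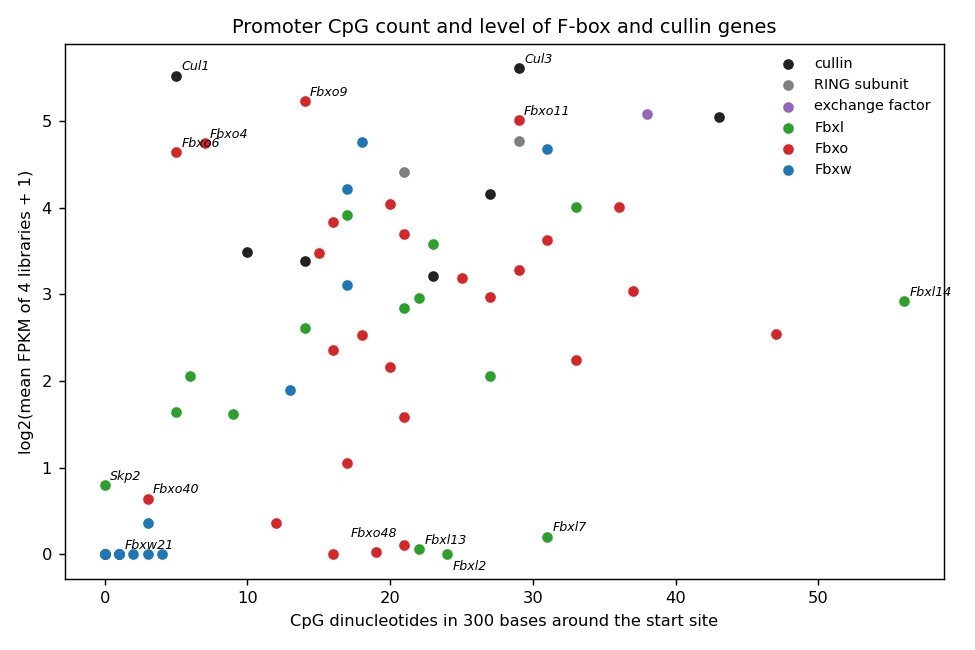
Number of CpG dinucleotides in the 300-base promoter window (x axis) against log2(mean FPKM of the 4 libraries + 1) (y axis) for the ligase genes with a RefSeq window outside chromosome 18, 1 point per gene, coloured by class. Genes with no fragment lie at 0 to 16 CpG, while Cul1 and Fbxo6 are high with 5 CpG and Fbxl7 is low with 31. The Cul1 window begins downstream of the start that GENCODE M21 gives.

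The cullins formed a graded series, and all 8 exceeded 6 FPKM in every library. Cul3, the scaffold for BTB-domain adaptors (gene ENSMUSG00000004364, chr1:80264923-80340480 in GENCODE M21, GRCm38), was highest on average, with 36.6, 46.8, 55.6 and 52.1 FPKM and no overlap between the groups, although its CPM of 132, 155, 141 and 187 did overlap. Cul1, the scaffold of the F-box ligases (ENSMUSG00000029686, chr6:47453398-47526139), had 37, 39.1, 58.7 and 45.3 FPKM, again with both KO-labelled values the higher. The order of these neighbours was not stable: Cul3 exceeded Cul1 in 2 of 4 libraries.

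Cul4a, a scaffold that binds Ddb1, followed with 33.1, 31.6, 29.5 and 33.7 FPKM, below Cul1 in every library. Cul5, the scaffold for SOCS-box adaptors, had 15.1, 15.1, 11.7 and 25.4 FPKM, below Cul4a in every library. Cul2, the scaffold of the Vhl ligase, had 13.0, 12.8, 21 and 12.3 FPKM. Cul5 and Cul2 overlapped, with Cul5 the higher in 3 of 4 libraries.

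The 3 least abundant cullins lay close together, and their ranges overlapped. Cul7, which pairs with the F-box protein Fbxw8, had 9.88, 10.9, 9.44 and 10.6 FPKM, below the range of Cul2. Cul4b, the X-linked partner gene of Cul4a, had 7.67, 9.97, 8.08 and 12.1 FPKM. Cul9, a large relative of Cul7, had 7.96, 10.6, 6.10 and 8.37 FPKM. Cul7 and Cul9 are listed in the table under 1 locus that holds 39 genes, so how fragments were divided within it bears on both.

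The RING subunits were of similar abundance to the scaffolds. Rbx1, the RING subunit of most cullins (ENSMUSG00000022400, chr15:81466296-81476369), had 28.0, 28.6, 20.9 and 27.4 FPKM. Both KO-labelled values were below both WT values, the second by a small margin. Rnf7, the RING subunit that works with Cul5 (ENSMUSG00000051234, chr9:96470937-96478675), had 16.3, 18.6, 16.4 and 29.8 FPKM, and the groups overlapped. Of Rnf7's transcript sequence, 9.49% of the sampled 100-base stretches also occur in another gene.

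The exchange factors differed from each other in level. Cand1 (ENSMUSG00000020114, chr10:119199255-119240055) had 31.4, 27.9, 39.7 and 32.6 FPKM. Cand2, known mainly from muscle, had 0.556, 0.391, 0.874 and 0.341 FPKM and was not tested. Its highest value was in KO-labelled replicate 1, the library with 1286 FPKM of summed muscle markers, and the part of that RNA in the value was not tested.

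**Figure D2:**
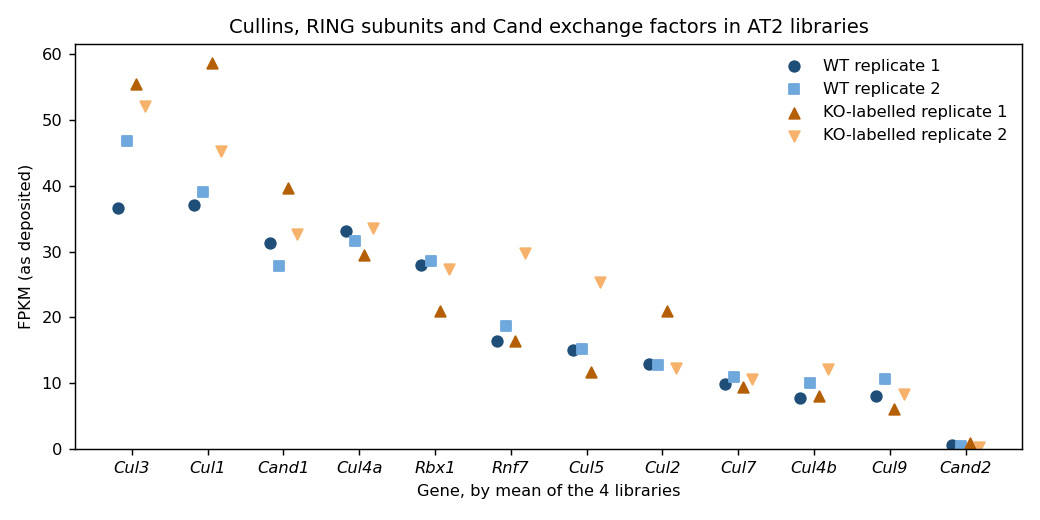
FPKM (y axis, linear, from 0) of the 8 cullins, 2 RING subunits and 2 exchange factors (x axis, ordered by mean), with 1 point per library for 2 WT and 2 KO-labelled libraries. Cul3 and Cul1 are highest, both KO-labelled points lie above both WT points for Cul3, Cul1 and Cand1, and Cul5 and Rnf7 have 1 high point each, in KO-labelled replicate 2.

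Among F-box genes, the iron regulator Fbxl5 was the most abundant. Fbxl5, which targets the iron regulatory proteins (ENSMUSG00000039753, chr5:43744615-43821638), had 58.2, 66.1, 44.2 and 105 FPKM from 788, 1763, 1477 and 1910 fragments. The WT libraries lay between the KO-labelled libraries, which were the lowest and the highest of the 4. The table lists it in 1 locus with Bst1. Of the 77 F-box genes, 8 had a mean of 20 FPKM or more.

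The largest difference on the log2(FPKM + 1) scale in the Fbxl class was that of a clock regulator. Fbxl21, which acts on cryptochromes (ENSMUSG00000035509, chr13:56522472-56537898), had 2.11 and 1.74 FPKM in WT against 4.69 and 4.09 FPKM in the KO-labelled libraries, from 19, 33, 75 and 46 fragments. Both KO-labelled values of Fbxl21 were above both WT values, also in CPM. Fbxl20, a synaptic F-box protein, had 15.4, 12, 16.4 and 16.7 FPKM, and Fbxl17, which acts in quality control of BTB-domain proteins, had 13.4, 16.1, 11.5 and 15.5 FPKM.

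Several other Fbxl genes were lower in the libraries labelled KO, though none passed the test described below. Fbxl6 (ENSMUSG00000022559, chr15:76535721-76538746) had 15.6 and 12.3 FPKM in WT against 6.94 and 8.81 FPKM in the KO-labelled libraries, from 120, 188, 133 and 110 fragments, with no overlap. Fbxl12 had 8.94 and 7.87 FPKM in WT against 4.28 and 6.03 FPKM, also with no overlap, but its CPM of 19.0, 19.6, 17.0 and 19.8 did overlap. Fbxl12 shares its locus in the table with Ubl5. Fbxl14, which targets Snail proteins, had 7.45 and 7.54 FPKM in WT against 6.46 and 4.79 FPKM, and Fbxl18 had 7.73 and 6.23 FPKM against 4.59 and 6.11 FPKM, the groups not overlapping for either. Fbxl19 had 6.33, 4.96, 5.47 and 3.64 FPKM and overlapped, as did Fbxl22, an F-box gene of striated muscle, at 3.48, 2.86, 3.02 and 3.24 FPKM.

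The Fbxo class, defined only by domains other than leucine-rich or WD40 repeats, had the most genes. Fbxo9 had 34.7, 41.5, 25 and 44.7 FPKM, with the KO-labelled libraries lowest and highest. Fbxo11, whose promoter is shown above, had 27.6 and 30.7 FPKM in WT against 34.7 and 31.9 FPKM, both KO-labelled values being the higher. Its CPM of 116, 136, 128 and 136 did overlap. Fbxo4 had 21.1, 25.7, 23.8 and 32.8 FPKM and Fbxo6, which binds glycans on misfolded glycoproteins, had 30.3, 20.3, 19.4 and 25.9 FPKM, with overlap in both.

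The Fbxo genes with the smallest unadjusted p were Fbxo7 and Fbxo30. Fbxo7, a gene of inherited parkinsonism whose product binds the proteasome regulator PI31 (ENSMUSG00000001786, chr10:86021972-86051873), had 8.85 and 8.19 FPKM in WT against 16.3 and 12.1 FPKM in the KO-labelled libraries, from 99, 183, 278 and 222 fragments. Fbxo30 (ENSMUSG00000047648, chr10:11281330-11298052) had 3.52 and 3.79 FPKM in WT against 5.76 and 6.29 FPKM, from 65, 137, 201 and 202 fragments. Fbxo7 shares its locus with A230060F14Rik. For Fbxo7 and Fbxo30, every KO-labelled value was above every WT value in FPKM and in CPM.

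Other Fbxo genes were set apart by 1 library. Fbxo18, a DNA helicase with an F-box, had 15.6, 14.4, 29.7 and 14.9 FPKM, and Fbxo33 had 13.9, 10.7, 23.4 and 12.2 FPKM. In both the high value was KO-labelled replicate 1 alone, and the other 3 libraries lay together. Fbxo3 had 13.9, 14.6, 12.4 and 20.7 FPKM, its high value in KO-labelled replicate 2. Fbxo46, named in the genotype field of that library, had 4.13, 3.79, 3.82 and 4.80 FPKM, so its highest value of the 4 was in the library whose label names it.

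The 3 genes of the cell cycle list, Skp2, Fbxo5 and Fbxo43, were low. The other F-box genes were not sorted by cell cycle role. Skp2, which degrades the cyclin-dependent kinase inhibitor p27, had 0.459, 0.794, 1.14 and 0.563 FPKM and was not tested. Fbxo5 (Emi1), an inhibitor of the anaphase-promoting complex, had 1.24, 4.19, 3.10 and 5.36 FPKM from 11, 47, 29 and 32 fragments. Its meiotic relative Fbxo43 (Emi2) had 5 fragments in all.

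The muscle F-box gene Fbxo40 (ENSMUSG00000047746, chr16:36963460-36990467) had 0.199, 0.204, 1.85 and 0 FPKM, from 3, 7, 63 and 0 fragments. Nearly all of its fragments were therefore in KO-labelled replicate 1, at 6.63 CPM (exact 95% binomial interval 5.09 to 8.48), and WT replicate 2 stood at 0.854 CPM (0.343 to 1.76). That library is the one with 1286 FPKM of muscle markers, whose part in this value was not tested. The other genes of the muscle list did not stand out there: Fbxo32 (atrogin-1), which is also made outside muscle, had 2.96, 2.71, 2.90 and 3.52 FPKM.

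The Fbxw class was divided between 8 tested genes, 12 without a fragment, and Fbxw10 and Fbxw22 with 4 and 13 fragments in all. Fbxw2 had 21.8, 26.5, 18.5 and 37.5 FPKM, Fbxw11 (beta-TrCP2) had 23.1, 30.7, 19.0 and 25.3 FPKM, and its paralog Btrc (beta-TrCP1) had 2.99, 2.81, 3.24 and 2.44 FPKM. In FPKM, Fbxw11 was thus above Btrc in every library; both recognise phosphorylated substrates such as beta-catenin. Fbxw4 had 21.4, 14.2, 20.8 and 21.7 FPKM, and shares a table locus of 12 genes with Btrc. Fbxw5, Fbxw8 and Fbxw9 had 16.7, 19.2, 12.2 and 22.4 FPKM, 19.8, 16.7, 11.8 and 19.0 FPKM, and 9.91, 7.45, 5.93 and 7.27 FPKM. Of these, Fbxw9 was lower in both KO-labelled libraries than in either WT library, KO-labelled replicate 2 by a small margin. Fbxw17 was highest in KO-labelled replicate 2, with 2.02, 1.16, 1.79 and 5.95 FPKM from only 9, 12, 8 and 37 fragments.

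The table places 13 Fbxw genes on chromosome 9, most of them known as a cluster of oocyte F-box genes. Of these 13, 12 had no fragment in any library, and Fbxw22 had 0, 1, 6 and 6 fragments. In KO-labelled replicate 2 the 6 fragments of Fbxw22 gave 0.849 CPM (exact 95% binomial interval 0.312 to 1.85), and none of the 13 was tested. Cluster members are related in sequence, and the table and GENCODE M21 place the identifier of Fbxw14 differently, so its count of 0 is uncertain. Elsewhere, Fbxl7 had 10 fragments, all in KO-labelled replicate 1, and Fbxl2 had 1.

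**Figure D3:**
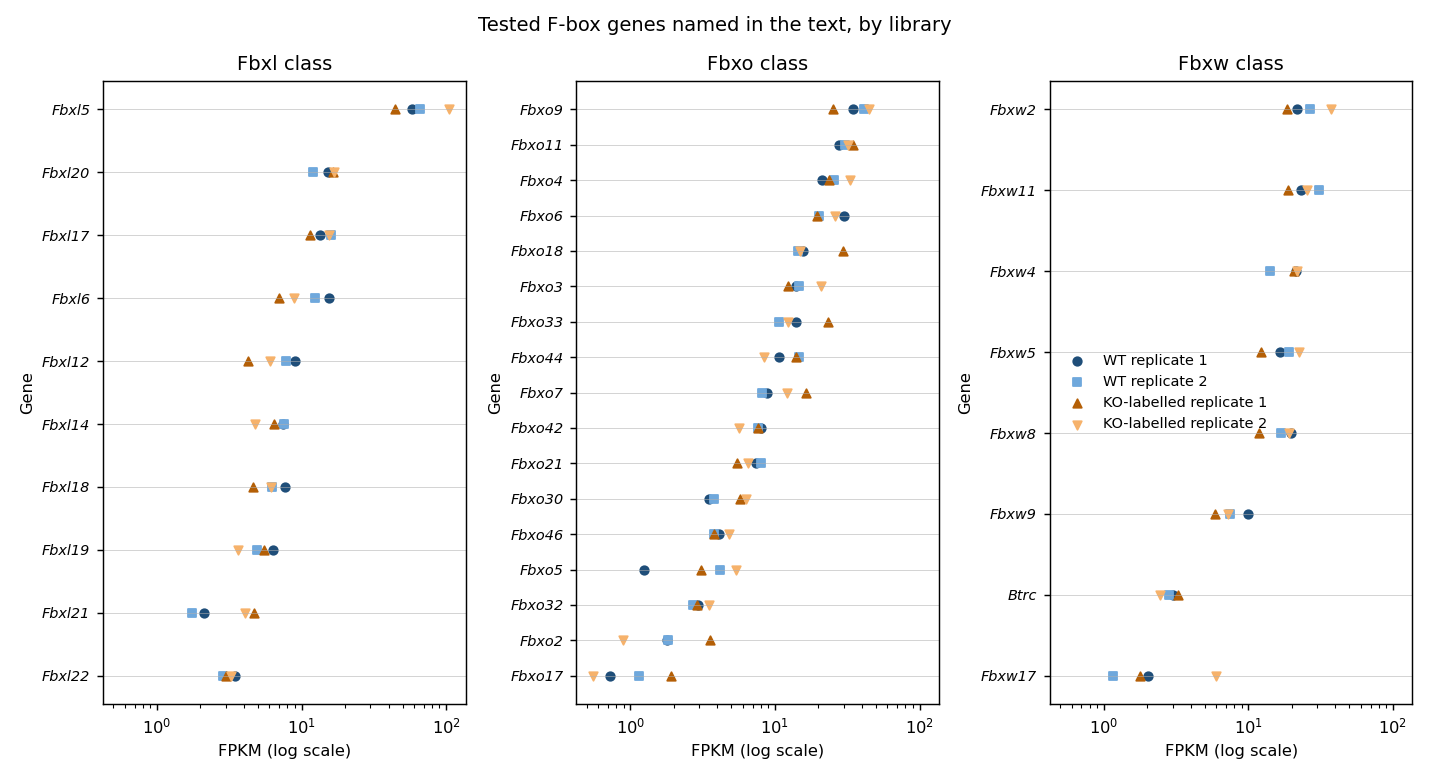
FPKM (x axis, log scale) of the tested F-box genes named in the text (y axis, ordered by mean within class), with 1 marker per library for 2 WT and 2 KO-labelled libraries. Fbxl5 is highest, and for Fbxl21 and Fbxo30 both KO-labelled markers lie to the right of both WT markers, while for Fbxl6 both lie to the left.

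Whether the libraries labelled KO differed in these genes was tested with limma on log2(FPKM + 1) across the whole table. With limma and Benjamini-Hochberg adjustment over 11055 genes, 0 of the 61 tested ligase genes passed an adjusted p of 0.05, and 0 genes of the table did (0%). At an unadjusted p under 0.05, limma gave 3 of 61, against 4.84% of all tested genes, a share near the background; 2 were higher under the KO label (2.68% of all genes) and 1 lower (2.16%). In edgeR's quasi-likelihood test on recovered fragments, 0 of 64 passed after adjustment and 1 had an unadjusted p under 0.05 (3.18% of all genes tested there). In DESeq2, 0 of 75 passed after adjustment (0.0457% of all genes did) and 0 had an unadjusted p under 0.05 (1.82%). The median difference was 0.06 on the log2(FPKM + 1) scale, against 0.03 over all tested genes, and single genes ranged from -0.75 to 0.88. Of the 61, 31 had a difference above 0, against 54.1% of all tested genes; in edgeR 29 of 64 were above 0, against 51.9%, and in DESeq2 33 of 75, against 51.5%.

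The 3 genes were Fbxl21, Fbxl6 and Fbxo7. For Fbxl21 the log2(FPKM + 1) difference was 0.88 (SE 0.293, limma unadjusted p = 0.0241, adjusted p = 0.948), and it was 0.74 in edgeR's quasi-likelihood test on recovered fragments (unadjusted p = 0.128). For Fbxl6 it was -0.75 (SE 0.256, limma unadjusted p = 0.0265, adjusted p = 0.948) and -0.81 in edgeR (unadjusted p = 0.0174). For Fbxo7 it was 0.66 (SE 0.25, limma unadjusted p = 0.0383, adjusted p = 0.948) and 0.39 in edgeR (unadjusted p = 0.119). These values do not reach the threshold once all genes are counted, which does not show that the levels were equal.

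By class, the median log2(FPKM + 1) difference was 0.17 over the 8 cullins, -0.12 over the 15 tested Fbxl genes, 0.09 over the 27 tested Fbxo genes and -0.07 over the 8 tested Fbxw genes. The KO-labelled libraries did not share these directions. Set against the WT mean, the medians in replicates 1 and 2 were -0.11 and 0.15 for cullins and -0.33 and 0.03 for Fbxl. They were -0.01 and 0.13 for Fbxo and -0.42 and 0.18 for Fbxw. In edgeR the cullin median was 0.07. In limma 5 Fbxl genes were above 0 and 10 below, 16 Fbxo genes above and 11 below, and 3 Fbxw genes above and 5 below. In edgeR on recovered fragments these splits were 4 and 12, 17 and 11, and 1 and 7. Over all tested genes, 54.1% were above 0 in limma and 51.9% in edgeR. In limma on FPKM, Cul1 had the largest difference of any cullin in absolute value, 0.43 (SE 0.217, unadjusted p = 0.0965). In edgeR on fragments it had 0.12, and Cul9 had the largest, -0.28.

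Counted by overlap, both KO-labelled values were above both WT values for 8 of the 61 genes in FPKM, against 20% of all tested genes, and below both for 8, against 15.1%. In both FPKM and CPM, 4 genes had both KO-labelled values above, against 11.8% of all tested genes, and these were Cul1, Fbxl21, Fbxo7 and Fbxo30. The 7 with both below, against 11.5%, were Fbxl6, Fbxl14, Fbxl18, Fbxo21, Fbxo42, Fbxw9 and Rbx1. For Fbxl18, Fbxo42, Fbxw9 and Rbx1 the margin in FPKM was small. For Fbxo42 it was 7.62 in KO-labelled replicate 1 against 7.65 in WT replicate 2. In CPM alone, the KO-labelled pair lay under the WT pair for 14 genes, against 17.1%, and over it for 6, against 16.4%. Naming of Fbxo21 and Fbxo42 followed from their count here, after their values were seen.

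For some genes the KO-labelled libraries lay on unlike sides of WT, at shares near those of the whole table. KO-labelled replicate 2 was above both WT libraries and replicate 1 below both for 12 of the 61 genes, against 17.3% of all tested genes, and the opposite held for 5, against 13%. Among the 12 were Fbxl5, Fbxo9, Fbxw2, Fbxw5 and Cul5, and among the 5 were Cul2, Fbxo2, Fbxo17 and Btrc. KO-labelled replicate 1 was the lowest of the 4 libraries for 28 of the 61 genes (31.9% of all tested genes), and KO-labelled replicate 2 the highest for 25 (35.2%). The FPKM total of replicate 1 was also the lowest, at 411223 against 446590 to 450842 in the others. Of these totals Sftpc alone gave 54458 FPKM, against 87684 to 101544 FPKM in the others. The part of the total in these counts was not tested. Set against the WT mean, the median difference on the log2(FPKM + 1) scale was -0.09 in replicate 1 and 0.09 in replicate 2, against 0.01 and 0.06 over all tested genes. Without KO-labelled replicate 2, limma called 134 genes of the table (1.21%) and 0 of the 61, and 22 of the 61 were above 0 (51.2% of all genes). Without KO-labelled replicate 1 it called 0 genes, and 38 of the 61 were above 0 (55.8% of all genes). These fits leave 1 library in the KO group, whose spread is taken to be like that of WT.

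**Figure D4:**
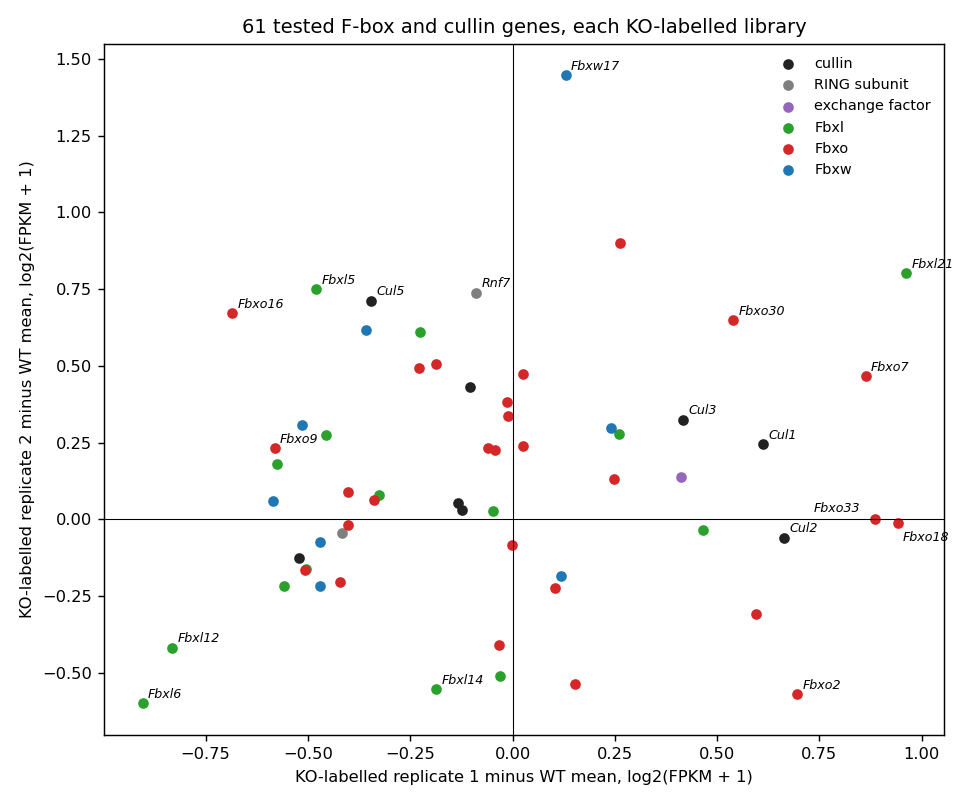
Difference from the WT mean on the log2(FPKM + 1) scale in KO-labelled replicate 1 (x axis) and replicate 2 (y axis) for the 61 tested ligase genes, 1 point per gene, coloured by class. Both axes share the same WT libraries, so the 2 differences are not independent. Fbxl21, Fbxo7 and Fbxo30 are above 0 on both axes and Fbxl6 and Fbxl12 below 0 on both, while Fbxl5, Cul5 and Fbxo9 lie on unlike sides.

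The values of several genes depended on the unit. FPKM divides fragments by transcript length, so the ratio of a gene's FPKM to its CPM would be the same in every library if 1 length applied to all. With each ratio divided by its library's median, the highest library exceeded the lowest by more than 1.5 times for 11 of 54 ligase genes with at least 20 fragments in each library, against 18.8% of 9544 genes, and lay within 1.1 times for 14, against 23.9%. The spread was 2.77 times for Fbxo33, 2.13 for Cul2, 1.93 for Fbxl12 and 1.83 for Cand1.

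Fbxo33 shows what this does. Its FPKM was highest in KO-labelled replicate 1, at 23.4, whereas its CPM was lowest there, at 41.8, 38.9, 35.1 and 49.8. Cul2 was likewise highest in FPKM in that library, at 21, but its CPM of 34.8, 40.7, 34.7 and 42.6 was lowest there. Cand1 had 39.7 FPKM, its highest, in the same library, and 128, 136, 102 and 144 CPM, its lowest. For these 3 genes the high FPKM of KO-labelled replicate 1 had no counterpart in fragments.

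Over the 61 genes, 9 had a difference of unlike sign on FPKM and on fragments, and 12 were more than 0.25 apart on the log2 scale. Fbxw2 had 0.13 in limma on FPKM and -0.41 in edgeR on fragments. Cand1 had 0.27 and -0.11, and Fbxl20 had 0.27 and -0.14. Fbxl6, Fbxl21 and Fbxo30 lay close on both scales.

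**Figure D5:**
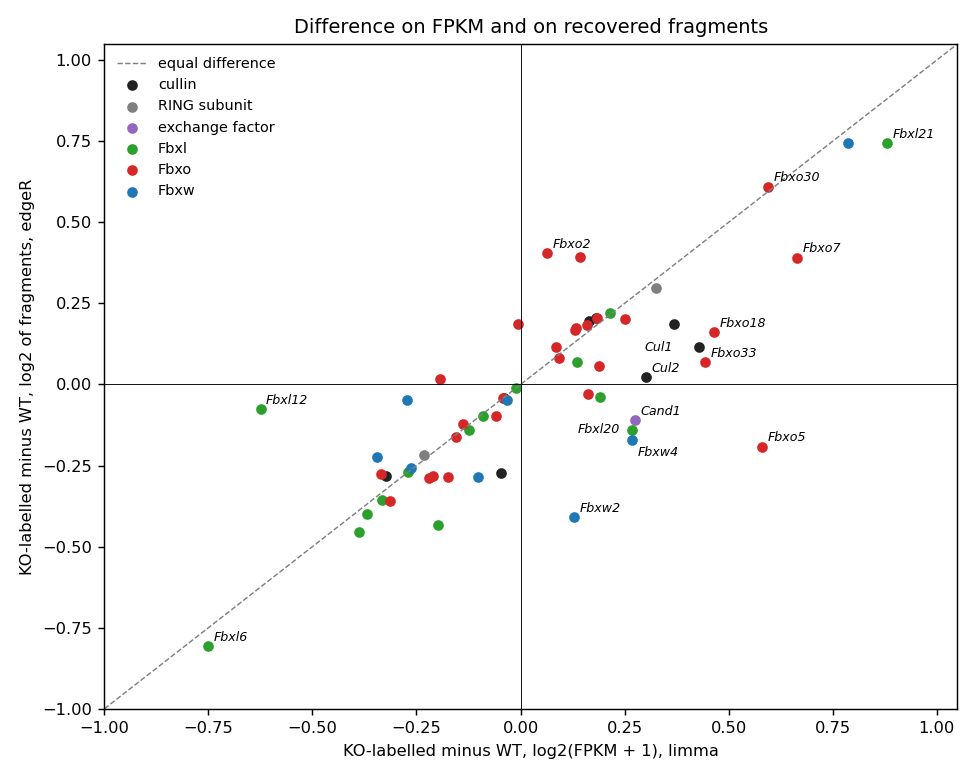
Difference between KO-labelled and WT libraries on the log2(FPKM + 1) scale from limma (x axis) and on the log2 scale of recovered fragments from edgeR (y axis), 1 point per ligase gene, with the dashed line marking equal values. Fbxl6, Fbxl21 and Fbxo30 lie near the line, and Fbxw2, Fbxo5 and Cand1 lie below it with unlike signs.

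The other genes of the pathway were also tested, as 3 lists of 57 genes, and limma called 0 of the 57 at an adjusted p of 0.05 (unadjusted p under 0.05 for 6, against 4.84% of all tested genes). At the same unadjusted threshold edgeR and DESeq2 on fragments each gave 1 of the 57, and limma with the replicate block gave 2. Of the 57, 30 were above 0 and 27 below. The genes named from these lists were chosen after their values were seen. The 20 neddylation and deneddylation genes had a median log2(FPKM + 1) difference of 0.26, with 12 above 0, against 0.03 over all tested genes. Cops2, a subunit of the COP9 signalosome, had 24.5 and 27.4 FPKM in WT against 51.3 and 36.6 FPKM (limma difference 0.72, unadjusted p = 0.0248, adjusted p = 0.948), and its edgeR difference on fragments was 0.38 (unadjusted p = 0.102). Dcun1d5, which assists Nedd8 transfer to cullins, had 6.63 and 6.80 FPKM against 11.1 and 10.9 FPKM, a difference of 0.64 in limma and 0.75 in edgeR. Nedd8 itself had 58.4, 53.9, 61.5 and 40.3 FPKM and overlapped. In FPKM, both KO-labelled values were above both WT values for 6 of the 20 genes, against 20% of all tested genes. They were below both for 4, against 15.1%. These 4 were all signalosome subunits: Gps1, Cops5, Cops7b and Cops8, with limma differences of -0.19, -0.20, -0.54 and -0.46. The signalosome subunits did not share a direction. Besides Cops2, Cops4 was higher, with 15.6 and 15.6 FPKM in WT against 23.4 and 19.3 FPKM (limma difference 0.42). Cops6, Cops3 and Cops7a had limma differences of 0.24, -0.06 and -0.09. In CPM the groups overlapped for Gps1 and Cops5.

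The 11 conjugating enzymes and co-ligases had a median of 0.05. Ube2d3, a ubiquitin-conjugating enzyme, had 68.7 and 67.0 FPKM in WT against 47.4 and 48.5 FPKM in the KO-labelled libraries (limma difference -0.49, unadjusted p = 0.0386, adjusted p = 0.948), and -0.59 in edgeR. The 26 adaptor genes had a median of -0.08. Skp1a, the adaptor that joins F-box proteins to Cul1, had 118 and 116 FPKM in WT against 165 and 161 FPKM, a difference of 0.48 in limma on FPKM and 0.20 in edgeR on fragments. For Ube2d3 and Skp1a the groups did not overlap in FPKM or in CPM. Arih1 and Dcaf17 also had an unadjusted p under 0.05 in limma. Their differences were 0.54 and 0.70 in limma on FPKM, but 0.13 and 0.27 in edgeR on fragments. For both, the groups overlapped in CPM.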

How the data were processed

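RNA of sorted AT2 cells was sequenced in 2 WT and 2 KO-labelled libraries, grouped by sample title. Per the submitters' processing notes, the tools were Cufflinks, Cuffdiff 2.2.1, HISAT2 2.0.4 and cutadapt 1.9.3, on mm10, with settings not stated in the labels. For each library the deposited table gives FPKM and estimated counts per gene, per the file headers. The authors' estimated counts are multiples of 1 constant per library; dividing by it made 90.9% to 92.6% of positive values whole within 0.05, and these fragments, rounded, gave CPM and the depth. Precision is limited by 4167114 to 9507432 fragments a library, and intervals reflect counting error alone.

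Groups were compared with limma 3.58.1 (R 4.3.3, trend) on log2(FPKM + 1), which understates changes of low genes, for genes at 1 FPKM or more in at least 2 libraries, with Benjamini-Hochberg adjustment over all tested genes. Alternatives were edgeR 4.0.16 and DESeq2 1.42.0 on recovered fragments, other pseudocounts, filters, scalings and variance models, a replicate block and leaving out each library. The procedure was tested on simulated data. These gave each gene the same ratio of FPKM to CPM in every library, unlike the real data, so the simulation does not cover that feature.

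The genes and lists were chosen with earlier results of these data known. Named were every cullin, RING subunit and exchange factor, Skp2 and Btrc, Fbxo45 and Fbxo46 as label checks, per F-box class the 4 most abundant and the 4 with the smallest unadjusted p, and members of the muscle, cell cycle, clock, lung and FBA-domain lists. The FBA domain binds glycoproteins in some F-box proteins. Not every F-box gene that this takes is reported here. Positions are from GENCODE M21 (GRCm38). Shared sequence is the percent of sampled 100-base stretches (1 in 4) found in transcripts of another gene.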

Additional observations from a re-analysis of the deposited data

How the results depend on the processing

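Under all 17 alternatives, 16 planned and 1 chosen after seeing the data (limma on log2(CPM + 1) of recovered fragments), 0 of the ligase genes and 0 of the pathway genes were called at an adjusted p of 0.05. Over the whole table, where limma on FPKM called 0 genes, DESeq2 called 7, edgeR without a filter called 5, and leaving out single libraries gave 0 to 134, with 134 called without KO replicate 2 and 3 without WT replicate 2. The median difference of the tested ligase genes was 0.06 in the main fit. It ranged from -0.09 without KO replicate 2 to 0.11 with FPKM scaled to equal library totals, and was 0.09 without KO replicate 1. On recovered fragments it was -0.04 in edgeR, in DESeq2 and in limma on CPM. Fbxl20 turned from 0.27 to -0.14 in edgeR, -0.14 in DESeq2, -0.14 in edgeR without a filter and -0.13 in limma on CPM. Cand1 turned from 0.27 to -0.11, -0.11, -0.11 and -0.12 in the same order; the cause was not tested. Of 44 named tested genes, 19 kept their sign under every alternative.

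With the replicate block, limma called 0 genes of the table and 0 ligase genes. Replicate numbers were not taken to pair the libraries in the main fit. The differences between replicates 1 and 2 correlated at 0.03 across genes between the groups, and the labels name nothing shared by a number. A low correlation over all genes cannot exclude that libraries of the same number shared some handling. With 2 libraries a group, depth and spread limit the low genes most, and an undetected difference is not shown to be absent.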

Other observations

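F-box genes with an FBA domain lie in 2 groups of neighbours, with unlike levels. On chromosome 4, Fbxo6 had 30.3, 20.3, 19.4 and 25.9 FPKM, Fbxo44 had 10.7, 14.7, 14.1 and 8.34 FPKM, and Fbxo2, known mainly from neurons, had 1.80, 1.82, 3.54 and 0.891 FPKM (WT replicates 1 and 2, then KO-labelled replicates 1 and 2). Fbxo6 was above Fbxo44 and Fbxo44 above Fbxo2 in all 4 libraries. On chromosome 7, Fbxo17 had 5, 16, 36 and 3 fragments and its neighbour Fbxo27 had 6, 3, 0 and 5. KO-labelled replicate 1 was thus the highest library for Fbxo2 and Fbxo17 and held no fragment of Fbxo27. These values rest on few fragments, and no comparison between neighbours was tested.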
